A study of Mus musculus with 8 samples.

Results

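The nuclear genes for the subunits of the mitochondrial respiratory chain and ATP synthase were followed in astrocytes flow sorted from cortical and from subcortical tissue. Members were chosen by symbol: genes starting with Ndufa, Ndufb, Ndufc, Ndufs, Ndufv, Uqcr, Cox4 to Cox8 or Atp5, and the succinate dehydrogenase genes Sdha, Sdhb, Sdhc and Sdhd. Of 108 matching symbols, 8 assembly factors starting with Ndufaf, 9 symbols with the suffix -ps and 5 genes under 15 summed counts were left out, which gave 86 members among 55417 gene rows, of which 15458 held at least 15 counts. The members fall into 39 genes of complex I, 4 of complex II, 8 of complex III, 18 of complex IV and 17 of complex V. Ndufa4 and its paralogue Ndufa4l2 carry a complex I symbol but were counted with complex IV, where the Ndufa4 protein is known to sit. Cytochrome c1 (Cyc1) and the ATP synthase inhibitor, listed as Atpif1, lie outside the symbol rule.

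Complex I (NADH dehydrogenase) and complex II (succinate dehydrogenase) pass electrons from NADH and succinate to ubiquinone, complex III hands them to cytochrome c, and complex IV gives them to oxygen. Complexes I, III and IV pump protons across the inner mitochondrial membrane, and complex V, the ATP synthase, uses that gradient to make ATP. Complexes I, III, IV and V are built from nuclear and mitochondrially encoded subunits together, while complex II is nuclear throughout. Astrocytes are known for strong glycolysis and lactate release, but they also hold mitochondria in their fine processes, where oxidation of glutamate and fatty acids takes place.

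The 8 libraries were made from 4 wild-type animals (postnatal day 29), 2 males (mice 1 and 4) and 2 females (mice 2 and 3), and each mouse gave 1 cortical and 1 subcortical sample. No treatment is named for any group, and the strain and the marker used for sorting are not stated in the labels. Which nuclei the subcortical samples span is not named either. Gene counts summed to 3.54 to 4.06 M per cortical library and to 2.48 to 3.83 M per subcortical library. Levels are given as CPM, that is, counts relative to a common library total, after each total was scaled by trimmed means of M-values. Each library samples transcripts at their 3′ end, so that 1 transcript is meant to give about 1 fragment whatever its length. Between genes, CPM is a rough guide only. In each library 30.218 to 40.719% of reads fell in no annotated gene, and molecular identifiers are not stated. A count of 0 in a library allows up to 0.701 to 1.44 CPM (3 counts, counting error only).

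The 13 astrocyte marker genes summed to 35150 to 36810 CPM in cortical and to 25800 to 28530 CPM in subcortical libraries, and they did not move together. Of them 4 were called higher in cortical samples (Slc1a2, Slc1a3, Glul and Gfap) and 2 lower (Aqp4 and Atp1b2). Markers of oligodendrocytes, the myelin-forming cells, were at 817.6 to 1313 CPM on the cortical side and 2178 to 5517 CPM in subcortical libraries, and 6 of the 8 were called lower in cortical samples. Oligodendrocyte precursor markers were at 229.5 to 295.5 and 380.9 to 654.9 CPM, nearly all of it Olig1 and Olig2, the 2 called lower. The others did not share this difference: Cspg4 had a log2 fold change of -0.05, and Gpr17 was at 0. Pdgfra had 11 counts in all, and C1ql1 had 35 cortical counts and 1 subcortical count. The 8 microglia markers were at 156 to 343.5 and 112.9 to 190.8 CPM, with 3 of 7 tested called higher (Csf1r, C1qa and Cx3cr1). The 6 pericyte and smooth muscle markers were at 463.2 to 1025 and 321.5 to 1186 CPM with no call, most of it Rgs5. The 12 neuron markers were at 100.9 to 190 and 94.17 to 160.6 CPM, with 1 called in each direction, and the 5 ependymal markers were at 66.96 to 129.6 and 106.9 to 137 CPM, with 1 called lower. Erythroid markers were at 25.29 to 136.5 and 7.801 to 295.8 CPM, the highest in the 2 libraries of mouse 1. Endothelial markers were at most 16.77 CPM in any library, with Cdh5 and Tek at 0. Fewer cells of a type and less RNA per cell cannot be told apart in such bulk samples.

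The summed level of the 86 genes was nearly the same in both regions. Cortical libraries held 12800, 12240, 11700 and 10270 CPM for mice 1 to 4, and subcortical libraries held 12440, 10590, 12170 and 10780 CPM in the same order. The regions overlapped, with cortical mouse 4 the lowest library and cortical mouse 1 the highest. The means were 11750 ± 1089 and 11490 ± 945.1 CPM (SD, n = 4 each), a log2 ratio of 0.03 that is small beside the spread between animals. Within a mouse the log2 ratio of cortical to subcortical was 0.04, 0.21, -0.06 and -0.07, so that it was positive in mice 1 and 2 and negative in mice 3 and 4.

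By complex, the summed levels also overlapped between the regions. Complex I summed to 4177 ± 302.7 CPM in cortical and 4061 ± 288.7 CPM in subcortical samples (SD, n = 4 each). Complex II summed to 505.8 ± 62.93 and 553.4 ± 78.48 CPM, and complex IV to 2448 ± 212 and 2523 ± 241.4 CPM. Complex V, the ATP synthase, summed to 3328 ± 383.5 and 3264 ± 311.4 CPM. Complex III was the only one of the 5 sums that was higher on the cortical side in all 4 mice, with log2 ratios of 0.37, 0.45, 0.04 and 0.11. Its cortical libraries held 1508, 1337, 1233 and 1097 CPM and its subcortical libraries 1167, 980.4, 1203 and 1016 CPM. The cortical library of mouse 4 lay below the subcortical libraries of mice 1 and 3, so the regions overlapped, and no test is given for a sum over members. On raw library totals, which moved the median log2 fold change of all tested genes from -0.01 to 0.19, the log2 ratios of the sums of complexes II and IV changed sign, from -0.13 to 0.08 and from -0.04 to 0.16.

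**Figure D1:**
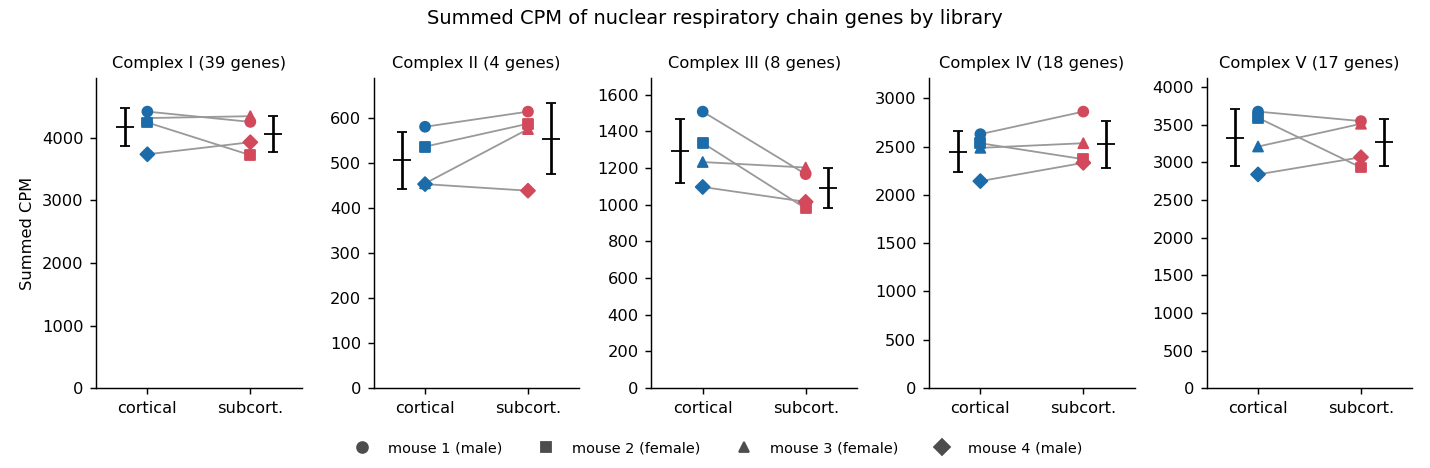
Summed CPM of the members of each complex in the 8 libraries, each panel with its own axis from 0 and the 2 libraries of a mouse joined by a line. Black bars give the mean and SD (n = 4). The complex III lines all fall from cortical to subcortical, while the lines of the other complexes run in both directions.

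Taken as a share of all member CPM, complex III made up 11.78, 10.93, 10.54 and 10.68% in cortical libraries and 9.379, 9.259, 9.889 and 9.424% in subcortical libraries. Every cortical share was above every subcortical share. Uqcrh was the gene of that complex with the largest difference. With Uqcrh left out of both the complex and the member total, the other 7 genes made up 8.654 ± 0.6911% in cortical and 7.941 ± 0.3796% in subcortical samples (SD, n = 4 each). The regions then overlapped.

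The region test set the 4 cortical against the 4 subcortical libraries, without pairing them by mouse (edgeR quasi-likelihood, Benjamini-Hochberg adjustment over 11781 tested genes). Of these, 802 genes were called at an adjusted p under 0.05, or 6.81% (3.42% higher and 3.39% lower in cortical samples). Of the 86 members 79 were tested, and 2 were called: Uqcrh was higher and Cox7b lower in cortical samples. The other 7 members, Ndufb4c, Ndufs6b, Cox4i2, Cox6c2, Cox7b2, Ndufa4l2 and Atp5g2, had too few counts for the filter. With the mouse as a block in edgeR, 885 genes (7.51%) and 3 members (3.8%) were called, with Sdhc added as lower.

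The tested members differed little by region in size and not only in count. Their median log2 fold change was 0.07, with quartiles of -0.11 and 0.20, against a median of -0.01 and quartiles of -0.36 and 0.34 over all tested genes. In all, 47 members lay above 0 and 32 below. For 72 of 79 members, or 91.1%, the log2 fold change was within 0.5 of 0, as it was for 64.4% of all tested genes. The comparisons with all tested genes given here were not matched for level. A mean of at least 100 CPM was reached by 46 of the 79 members but by 1381 of the 11781 tested genes. The 95% interval lay wholly within a 2-fold difference for 70 members (88.6%), against 40.1% of all tested genes, whose median standard error was 0.35 compared with 0.19 for the members. The unadjusted edgeR p was under 0.05 for 6 members (7.59%) and for 17.4% of all tested genes. For these 70 members the data thus bound a difference to less than 2-fold. Uqcrh, called at 1.55-fold, is one of them, so the bound does not exclude differences of the size that was called.

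**Figure D2:**
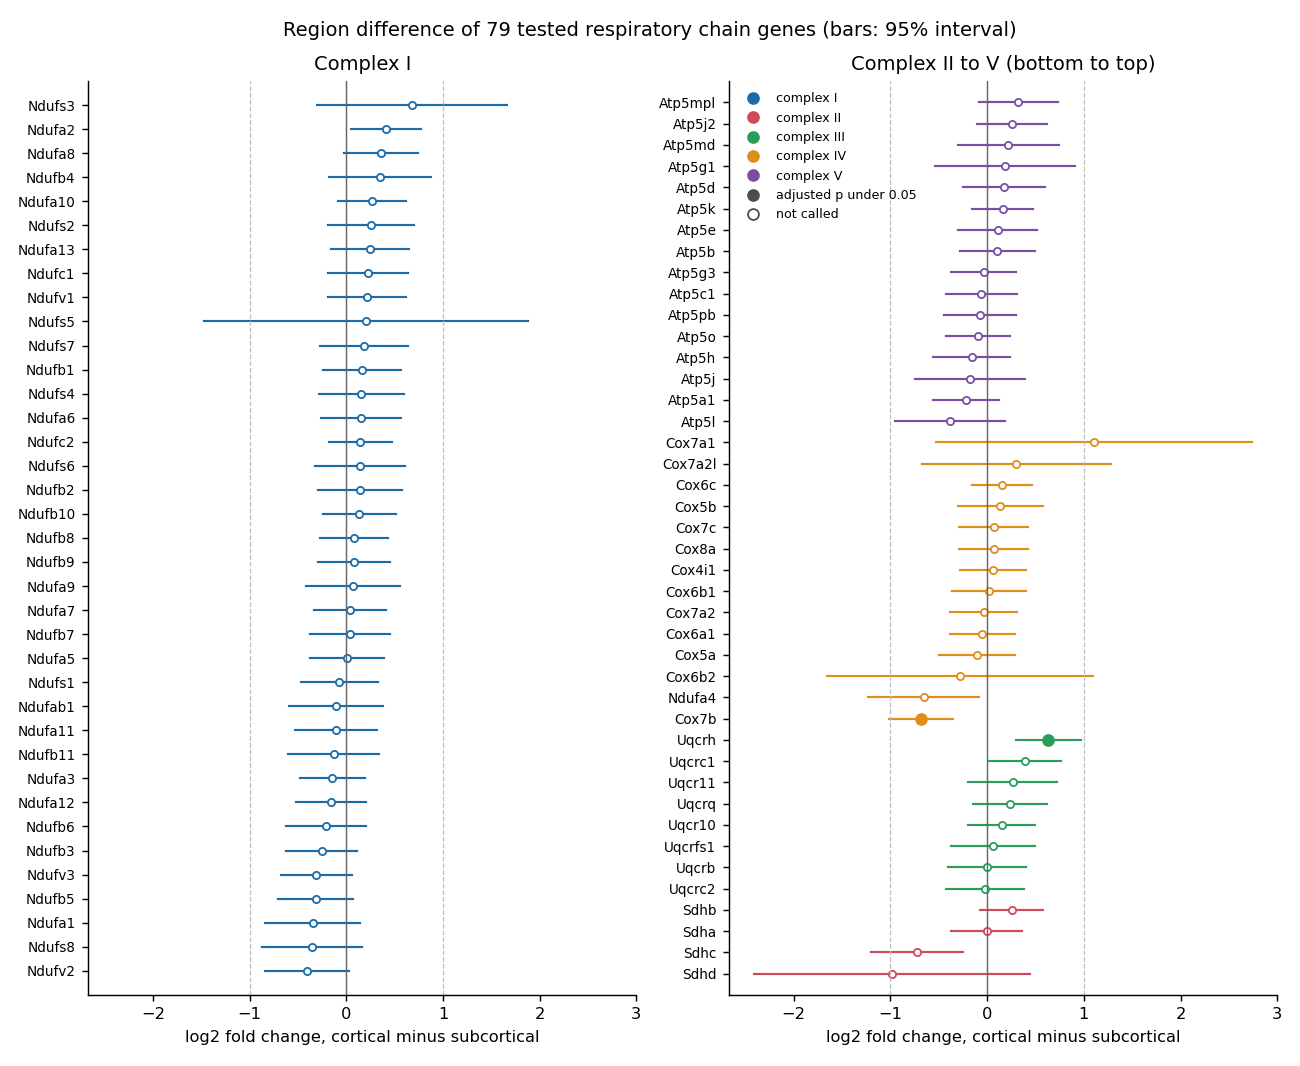
Log2 fold change of cortical against subcortical samples for the 79 tested members, with 95% intervals from edgeR, complex I on the left and complexes II to V on the right. Dashed lines mark a 2-fold difference. Uqcrh and Cox7b are the filled points, and the widest intervals belong to genes near or below 10 CPM such as Cox7a1, Ndufs5 and Sdhd.

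Uqcrh encodes the hinge protein, a small acidic subunit of complex III at the site where cytochrome c docks. Its level was 302.7, 318.1, 317.7 and 258 CPM in the cortical libraries of mice 1 to 4 and 211.8, 165.3, 185.2 and 208.4 CPM in the subcortical ones. The lowest cortical library was above the highest subcortical library. Cortical samples were 1.55-fold higher, a log2 fold change of 0.63 ± 0.16 (SE) with a 95% interval of 0.30 to 0.97 and an edgeR adjusted p of 0.016. This call was lost without the cortical library of mouse 2 (adjusted p = 0.054), the cortical library of mouse 3 (0.062) or the subcortical library of mouse 2 (0.054, all edgeR), where the log2 fold change was 0.57 to 0.60. Over all alternatives the adjusted p ran from 0.00064 with DESeq2 to 0.062. Microglia markers, given above, had 3 calls in the same direction, and their part in this result was not tested.

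Cox7b encodes a small membrane subunit of complex IV. Cortical libraries held 196.5, 179.6, 189.9 and 155.6 CPM and subcortical libraries 294.6, 318.1, 268.4 and 281.9 CPM. The highest cortical library was well below the lowest subcortical library, in the opposite direction to Uqcrh. The log2 fold change was -0.69 ± 0.16 (SE), a 1.61-fold lower cortical level, with a 95% interval of -1.02 to -0.36 and an edgeR adjusted p of 0.0075. It was called with any single library left out, but on raw library totals the log2 fold change was -0.47 with an edgeR adjusted p of 0.095. Over all alternatives its adjusted p ran from 8e-05 with DESeq2 to that 0.095. Oligodendrocyte markers, given above, were also lower in every cortical library than in any subcortical library, and their part in this result was not tested. For mice 1 to 4 these markers were at 1157, 817.6, 951.2 and 1313 CPM in cortical libraries. In subcortical libraries they were at 5517, 2998, 2782 and 2178 CPM.

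Since both genes were read in the same libraries, their ratio does not depend on library scaling. Uqcrh over Cox7b was 1.54, 1.771, 1.673 and 1.658 in cortical libraries and 0.7189, 0.5196, 0.6901 and 0.7391 in subcortical libraries. Every cortical ratio was above 1 and every subcortical ratio below it. The pair was singled out for its opposite calls, so this is a description. Cox7b made up 7.367 ± 0.2404% of complex IV CPM in cortical samples and 11.6 ± 1.449% in subcortical samples (SD, n = 4 each).

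**Figure D3:**
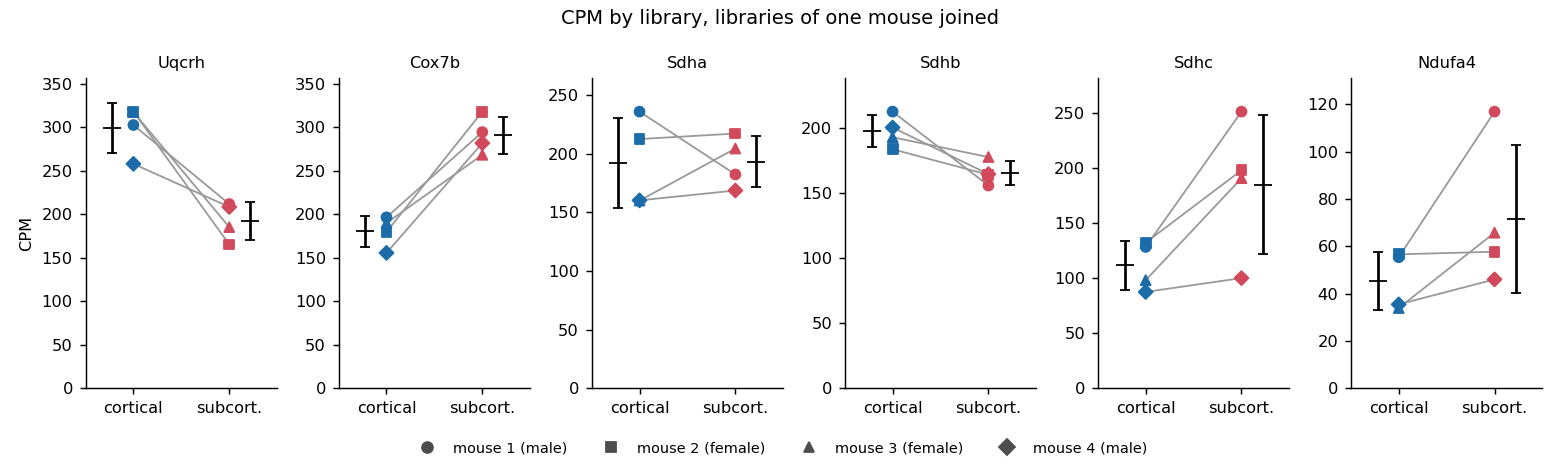
CPM of 6 members in each library, with axes from 0, the 2 libraries of a mouse joined and black bars for mean and SD (n = 4). Uqcrh and Sdhb are higher and Cox7b is lower in every cortical than in any subcortical library, whereas Sdha, Sdhc and Ndufa4 overlap.

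Promoter sequence was available from RefSeq (GRCm38.p6) for 69 of the 86 members, as 74 windows of 300 bases around the transcription start. The reference build differs from the GRCm39 build that the submitters name, and the windows were used for sequence only. The 150 bases just before the start are printed 5′ to 3′ on the strand of the gene for the 2 called members, for Sdhb, whose regions did not overlap, and for Atp5k, the second most abundant member, to show where the searched motifs lie. Capitals mark a match. Ndufs3, Uqcrc1 and Ndufv3 also had no overlap and Atp5g3 was more abundant, but their windows are not printed. In the full windows Sdhb held 2 and Atp5k 3 of the searched motifs, so the printed stretches do not stand for the members.

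Uqcrh, chr4:116075071-116075220, minus strand: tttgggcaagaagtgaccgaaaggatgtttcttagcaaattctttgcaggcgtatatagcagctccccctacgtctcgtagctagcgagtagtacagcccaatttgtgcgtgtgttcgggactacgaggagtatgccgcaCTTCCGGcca
Cox7b, chrX:106015550-106015699, plus strand: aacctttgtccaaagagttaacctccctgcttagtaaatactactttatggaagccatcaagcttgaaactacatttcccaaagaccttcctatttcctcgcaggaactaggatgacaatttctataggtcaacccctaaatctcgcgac
Sdhb, chr4:140961121-140961270, plus strand: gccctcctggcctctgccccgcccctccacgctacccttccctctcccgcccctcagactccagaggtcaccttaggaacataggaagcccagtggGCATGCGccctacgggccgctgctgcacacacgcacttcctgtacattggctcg
Atp5k, chr5:108434400-108434549, minus strand: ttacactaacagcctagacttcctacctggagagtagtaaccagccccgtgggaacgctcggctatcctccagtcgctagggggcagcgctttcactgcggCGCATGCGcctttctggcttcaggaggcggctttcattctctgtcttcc

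The motifs searched on both strands were GCATGCG, the core of nuclear respiratory factor 1 (NRF1) sites, CCGGAAG of the ETS family that includes GABP, AAGGTCA, a half-site of estrogen-related receptors, and AAGATGG, a core of YY1 sites. These factors are known regulators of nuclear mitochondrial genes. In the printed stretches the ETS letters lie on the other strand in Uqcrh, 10 bases before the start, and the NRF1 letters lie in Sdhb, 54 bases before it. Atp5k holds the NRF1 letters on both strands in 2 overlapping matches, 49 and 48 bases before the start, and Cox7b holds none of the 4 there. Over the full windows, GCATGCG was in 14.9% of the member windows and in 3.58% of all 32851 windows of the table. CCGGAAG was in 23.0 and 8.86%, AAGGTCA in 10.8 and 4.72%, and AAGATGG in 14.9 and 6.34%. A total of 36 member windows held at least 1 of the 4 motifs and 38 held none. The windows of the table were not matched to the members for expression level or base composition. The higher shares are therefore not shown to be particular to these genes. A match is a description of the letters and not of binding.

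Complex II was uneven among its 4 genes. Sdha, the flavoprotein that oxidises succinate, was at 192.2 ± 38.24 CPM on the cortical side and 193.1 ± 21.83 CPM in subcortical samples (SD, n = 4 each). Its partner Sdhb, the iron-sulfur subunit, was at 212.4, 183.5, 192.7 and 200.2 CPM in the cortical and 155.6, 163.9, 177.5 and 164.4 CPM in the subcortical libraries. The Sdhb regions did not overlap, but the difference was small, with a log2 fold change of 0.25 (95% interval -0.07 to 0.58, edgeR adjusted p = 0.46).

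Sdhc, a membrane anchor of complex II, was at 128.3, 132.2, 98.11 and 87.43 CPM in cortical libraries and 251.3, 198, 190.8 and 100 CPM in subcortical libraries. It was lower on the cortical side in all 4 mice, though the subcortical library of mouse 4 lay within the cortical range. The log2 fold change was -0.73 ± 0.23 (SE, 95% interval -1.20 to -0.25), and the edgeR adjusted p of 0.06 missed the threshold. With the mouse as a block in edgeR, Sdhc was called lower (log2 fold change -0.68, adjusted p = 0.021), as it was without the subcortical library of mouse 4 (-0.94, 0.0052). Over all alternatives the adjusted p ran from 0.0052 to 0.25, the latter without the subcortical library of mouse 1. The order of the subcortical libraries, mice 1, 2, 3 and 4 from high to low, is also the order of their oligodendrocyte markers (5517, 2998, 2782 and 2178 CPM). In the cortical libraries of mice 1 to 4 these markers were at 1157, 817.6, 951.2 and 1313 CPM, and Sdhc did not follow that order. The part of oligodendrocyte RNA in the Sdhc values was not tested. The second anchor, Sdhd, had 180 counts in all. Its level was 24.55 CPM in the subcortical library of mouse 1 and 2.097 to 7.821 CPM in the other 7 libraries, so that its log2 fold change of -0.98 (95% interval -2.41 to 0.44) was read with a single high library. Without it the log2 fold change was -0.01.

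Complex I, the largest of the complexes, had no called gene among 37 tested. Its member log2 fold changes ran from -0.40 for Ndufv2 to 0.68 for Ndufs3, with a median of 0.08. The 8 genes of the NADH-oxidising arm summed to 965.9 ± 70.86 and 926.1 ± 87.53 CPM in cortical and subcortical samples, the 8 of the ubiquinone-binding part to 773.5 ± 109.7 and 735.0 ± 75.53 CPM, and the 21 of the membrane arm with the acyl carrier protein Ndufab1 to 2436 ± 137.6 and 2399 ± 171.3 CPM (SD, n = 4 each). None of these parts separated the regions. The 7 core subunits, which form the catalytic core outside the membrane, summed to 527.8 ± 6.721 and 527.1 ± 63.7 CPM.

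The most abundant complex I transcript was Ndufa2, an accessory subunit of the NADH-oxidising arm, at 318.6, 291.5, 354.4 and 245 CPM in cortical libraries and 247.2, 174.4, 231.3 and 258.5 CPM in subcortical libraries. The cortical library of mouse 4 was within the subcortical range, and the log2 fold change of 0.41 was not called (edgeR adjusted p = 0.21). Ndufc2, a membrane arm subunit, followed at 262.4 ± 23.93 and 237.3 ± 18.62 CPM (SD, n = 4 each). Ndufs3, a core subunit, was much lower, at 8.877 to 16.42 CPM on the cortical side and 5.767 to 8.738 CPM in subcortical libraries. Its regions did not overlap, but its 274 counts left a 95% interval of -0.30 to 1.67 around the log2 fold change of 0.68 (edgeR adjusted p = 0.53). Ndufs5 had 116 counts and a mean of 4.339 CPM.

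Across all complexes, the regions did not overlap for 4 members on the higher side, Ndufs3, Sdhb, Uqcrh and Uqcrc1, and for 2 on the lower side, Ndufv3 and Cox7b, or 6 of 79. Over all tested genes the share without overlap was 12.2% (6.54% higher and 5.64% lower), so the members' share was the smaller one. Uqcrc1 and Ndufv3 are named because of this count, after their values were seen. Uqcrc1, a core protein of complex III, was at 92.25 to 108.5 CPM on the cortical side and 68.24 to 84.58 CPM in subcortical libraries (log2 fold change 0.39, edgeR adjusted p = 0.26). Ndufv3, an accessory subunit of the NADH-oxidising arm, was at 73.7 to 92.04 and 95.29 to 110.5 CPM (-0.31, edgeR adjusted p = 0.41). The same direction in all 4 mice was seen for 10 members on the higher and 8 on the lower side, beside 26.4% of all tested genes (13.3% higher and 13.1% lower).

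In complex III, no gene other than Uqcrh was called. Uqcr10 was at 207 ± 32.76 and 186.4 ± 14.52 CPM and Uqcrq at 210.8 ± 36.63 and 179 ± 38.49 CPM in cortical and subcortical samples (SD, n = 4 each). The Rieske iron-sulfur protein Uqcrfs1 was at 165.8 ± 38.07 and 159 ± 45.22 CPM. The core protein Uqcrc2 and the subunit Uqcrb had log2 fold changes of -0.02 and 0.00. Without Uqcrh the other 7 genes summed to 994.8 ± 158.8 and 898.8 ± 104.4 CPM. Cyc1, which encodes the cytochrome c1 subunit, was at 75.96 ± 10.87 and 64.15 ± 10.82 CPM and was not called (edgeR adjusted p = 0.62).

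Complex IV has subunits with tissue-specific isoforms, and in these cells the broadly expressed isoform held nearly all of the signal. Cox4i1 had a mean of 185 CPM over the 8 libraries against 2.804 CPM for the lung-type Cox4i2. Cox6a1 had 254.3 CPM, while the heart and muscle form Cox6a2 had 13 counts in all, every one in the cortical library of mouse 3. Cox6b1 had 201.7 CPM against 6.001 CPM for the testis form Cox6b2. Cox7a2 had 258.3 CPM, the heart and muscle form Cox7a1 5.638 CPM, and Cox7a2l, which joins complexes III and IV in supercomplexes, 10.08 CPM. Cox8a had 381.1 CPM, Cox8b 10 counts and Cox8c no count. Ndufa4 had 58.43 CPM against 2.813 CPM for the hypoxia-responsive Ndufa4l2. The 11 general isoforms together summed to 2415 ± 204.8 CPM in cortical and 2495 ± 233.4 CPM in subcortical samples, and the 7 other isoforms and paralogues to 32.8 ± 8.138 and 28.2 ± 8.923 CPM (SD, n = 4 each).

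The most abundant complex IV transcripts were Cox6c, with 455.5 ± 24.51 and 409.8 ± 36.89 CPM, and Cox8a, with 389.9 ± 73.04 and 372.3 ± 45.51 CPM in cortical and subcortical samples (SD, n = 4 each). Neither was called, and both 95% intervals of the log2 fold change lay between -0.29 and 0.47. Ndufa4 was at 55.33, 56.57, 33.87 and 35.41 CPM in the cortical and 116.9, 57.67, 65.7 and 45.97 CPM in the subcortical libraries. It was lower on the cortical side in all 4 mice, by little in mouse 2, and the subcortical library of mouse 4 lay inside the cortical range. The log2 fold change of -0.66 (95% interval -1.23 to -0.08) was not called (edgeR adjusted p = 0.2). Without the subcortical library of mouse 1 it was -0.32 (edgeR adjusted p = 0.66, and 0.099 to 0.66 over all alternatives). That library also had the highest oligodendrocyte markers, whose part in the Ndufa4 values was not tested. Cox7a1 had the highest log2 fold change of the tested members, 1.11, but with 169 counts its 95% interval ran from -0.53 to 2.74.

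Complex V had no called gene among 16 tested, and all 16 log2 fold changes lay within 0.5 of 0, from -0.38 for Atp5l to 0.32 for Atp5mpl. Its 3 genes for the membrane c ring encode the same mature protein and differ in level. Atp5g3 was the most abundant of all members, with 743.5, 628.1, 613.4 and 488 CPM in cortical and 709.5, 595.9, 650 and 582.6 CPM in subcortical libraries. The regions overlapped (log2 fold change -0.04, 95% interval -0.37 to 0.30). Atp5g1 had a mean of 25.32 CPM, and Atp5g2 had 19 counts in all. Atp5k, a small membrane subunit, was at 559.4 ± 45.34 and 501.1 ± 54.33 CPM, and the catalytic F1 subunits Atp5a1 and Atp5b had means of 319.6 and 305.7 CPM over the 8 libraries. The peripheral stalk, which holds the head still while the rotor turns, summed to 634.4 ± 86.82 and 685 ± 42.18 CPM over 4 genes. The inhibitor Atpif1 was at 73.27 ± 8.16 and 91.17 ± 12.63 CPM and was not called (edgeR adjusted p = 0.44).

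Levels among the members covered a wide range. Mean CPM over the 8 libraries ran from 0.5595 for Ndufb4c to 626.4 for Atp5g3 with a median of 110.4, and 46 members were at or above 100 CPM while 12 were under 10 CPM. The low group holds tissue-restricted isoforms, among them Cox4i2, Cox6b2 and Cox7a1, and other paralogues such as Ndufa4l2 and Atp5g2. It also holds Ndufs3, Ndufs5 and Sdhd, whose proteins each complex needs once. Between 30.218 and 40.719% of the reads of a library fell in no annotated gene, and their part in these levels was not tested. The split of counts between Ndufb4 and Ndufb4c, Ndufs6 and Ndufs6b, and Cox6c and Cox6c2, which are closely related pairs, is uncertain.

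**Figure D4:**
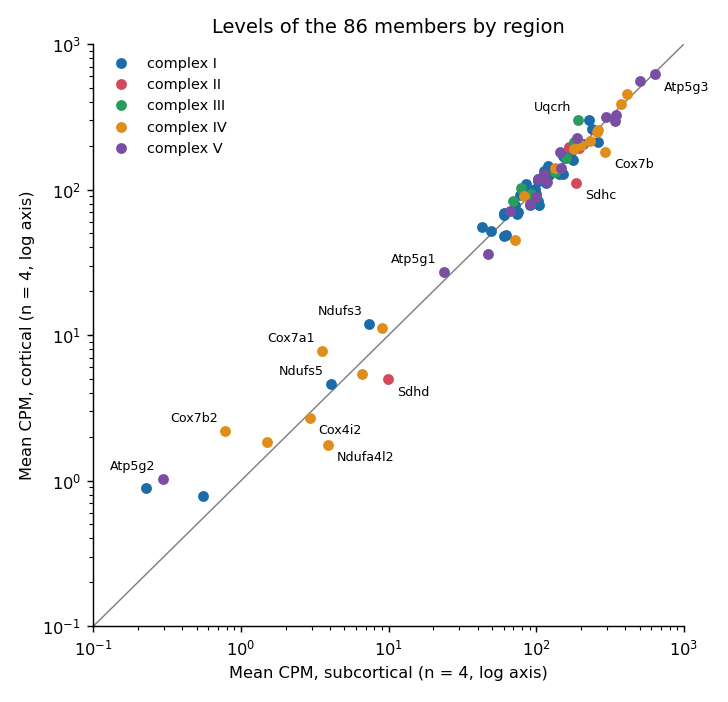
Mean CPM of each of the 86 members in subcortical (x) and cortical (y) samples on log axes (n = 4 libraries each), coloured by complex, with the line of equal levels. Abundant members lie near the line, with Uqcrh above it and Cox7b and Sdhc below it, and the scatter widens under 10 CPM.

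Summed levels differed between animals by more than the regions' means did. The cortical library of mouse 4 was the lowest of its region for 43 of the 79 tested members (54.4%), against 27.8% of all tested genes, and that of mouse 1 was the highest for 38 members (48.1%, against 23.8%). On the subcortical side the libraries of mice 2 and 4 were lowest for 30 and 28 members (38.0 and 35.4%, against 27.9 and 24.6% of all tested genes). Members share the scaling of a library and are not independent of each other, so these counts are a description. Over the 4 libraries of a region the median coefficient of variation of a member was 16.1% in cortical and 17.1% in subcortical samples, beside 29.9 and 31.5% for all tested genes. Among genes of at least 100 CPM it was 14.7 and 14.4% for the 46 members and 14.7 and 16.5% for all 1381 genes.

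Sex was compared on counts summed over both regions of a mouse, 2 females against 2 males. Of 13402 tested genes edgeR called 5 (0.0373%), and none of the 82 tested members was among them. No member had an unadjusted p under 0.05, compared with 3.73% of all tested genes, and DESeq2 and limma-voom also called no member. Member log2 fold changes, female minus male, ran from -0.62 to 1.11. For summed levels, the counts of both regions were added per mouse and scaled anew over the 4 mice. Both males lay at the ends, with 12810 CPM in mouse 1 and 10560 CPM in mouse 4. The females lay between them, at 11790 and 12050 CPM. The interaction, which asks whether the region difference depends on sex, called no gene among 11781 (0%) and no member among 79. At an unadjusted p under 0.05 it had 3.42% of all tested genes and no member, and DESeq2 called no member. With 2 libraries per sex and region, these counts do not show that the sexes are alike.

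Mitochondrially encoded subunits share complexes I, III, IV and V with the members. Of their 13 mRNAs, 8 had counts, and mt-Atp6, mt-Atp8, mt-Co2, mt-Co3 and mt-Nd4l are listed at 0 in every library. Sums and ratios given here therefore cover 8 of the 13 mRNAs and understate the mitochondrially encoded total. The 8 summed to 57270, 76820, 74620 and 76780 CPM in cortical libraries and 125500, 132700, 58680 and 80940 CPM in subcortical libraries. The subcortical libraries of mice 1 and 2 stood far above the other 6. The ratio of the CPM of these 8 mRNAs to nuclear member CPM was 4.47 to 7.48 in cortical and 4.82 to 12.5 in subcortical libraries. Of the 8 mRNAs 2 were called lower in cortical samples by edgeR, mt-Nd3 of complex I (log2 fold change -1.36, adjusted p = 0.025) and mt-Cytb of complex III (-0.63, 0.041). Without the subcortical library of mouse 1 both calls were lost, with log2 fold changes of -0.71 and -0.43 (edgeR adjusted p = 0.27 and 0.2). Leaving out other single libraries also ended them, cortical mice 1, 3 or 4 for mt-Nd3 and any cortical library or subcortical mouse 2 for mt-Cytb. Raw library totals ended both calls as well (adjusted p = 0.055 for mt-Nd3 and 0.14 for mt-Cytb, edgeR). For mt-Nd3 so did limma-voom (adjusted p = 0.055), and for mt-Cytb so did the mouse as a block (log2 fold change -0.56, adjusted p = 0.057) and sex as a covariate (0.052, both edgeR). Their nuclear partners did not separate those 2 libraries: the member sum was 12440 CPM in the subcortical library of mouse 1 and 10590 CPM in that of mouse 2.

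Genes that assemble, feed and control the chain were described by their counts and medians, beside 802 calls in 11781 genes. None of 16 complex I, 4 complex II, 6 complex III or 4 complex V assembly factors was called. Of 21 tested complex IV assembly factors 1 was called, Cox10, the enzyme that makes heme O for complex IV. Its level was 278 ± 16.61 CPM in cortical and 80.26 ± 23.02 CPM in subcortical samples (SD, n = 4 each), a log2 fold change of 1.79 (95% interval 1.38 to 2.19, edgeR adjusted p = 1.4e-06). Cox10 was called under every alternative run, while none of the 14 tested complex IV members was called higher. Of 17 genes of pyruvate dehydrogenase and the citric acid cycle only Idh2, the mitochondrial NADP-dependent isocitrate dehydrogenase, was called, at 119.8 ± 18.48 and 50.53 ± 17.48 CPM (log2 fold change 1.23, edgeR adjusted p = 0.0016, at most 0.0095 under the alternatives). Of 19 carriers, pores and import genes only Slc25a3, the phosphate carrier that supplies the ATP synthase, was called, at 562 ± 68.3 and 388.4 ± 17.81 CPM (0.53, edgeR adjusted p = 0.036). The Slc25a3 call was lost without any one of 6 libraries, all but the cortical library of mouse 4 and the subcortical library of mouse 3 (edgeR adjusted p up to 0.14). The ubiquinone synthesis and electron carrier list had a median of 0.24 over 18 genes, without a call.

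The regulators of mitochondrial gene expression had no call among 13 tested genes. The genes named here were chosen for their role, after their values were seen. Ppargc1a, the coactivator that drives mitochondrial biogenesis, was at 143.5 ± 32.12 and 139.3 ± 17.86 CPM in cortical and subcortical samples (SD, n = 4 each). Nrf1, which encodes the factor whose core motif was searched above, was at 51.47 ± 10.13 and 30.57 ± 7.225 CPM, with a log2 fold change of 0.75 (95% interval 0.22 to 1.28) that was not called (edgeR adjusted p = 0.088, and 0.019 on raw library totals). Gabpa, Esrra and Tfam had log2 fold changes of -0.09, 0.09 and -0.12. Cytosolic ribosomal protein genes, the other large set of small abundant transcripts, had a median of 0.33 over 78 tested genes with 8 called higher and 0 lower. Mitochondrial ribosomal protein genes had a median of 0.10 over 73 with no call.

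**Figure D5:**
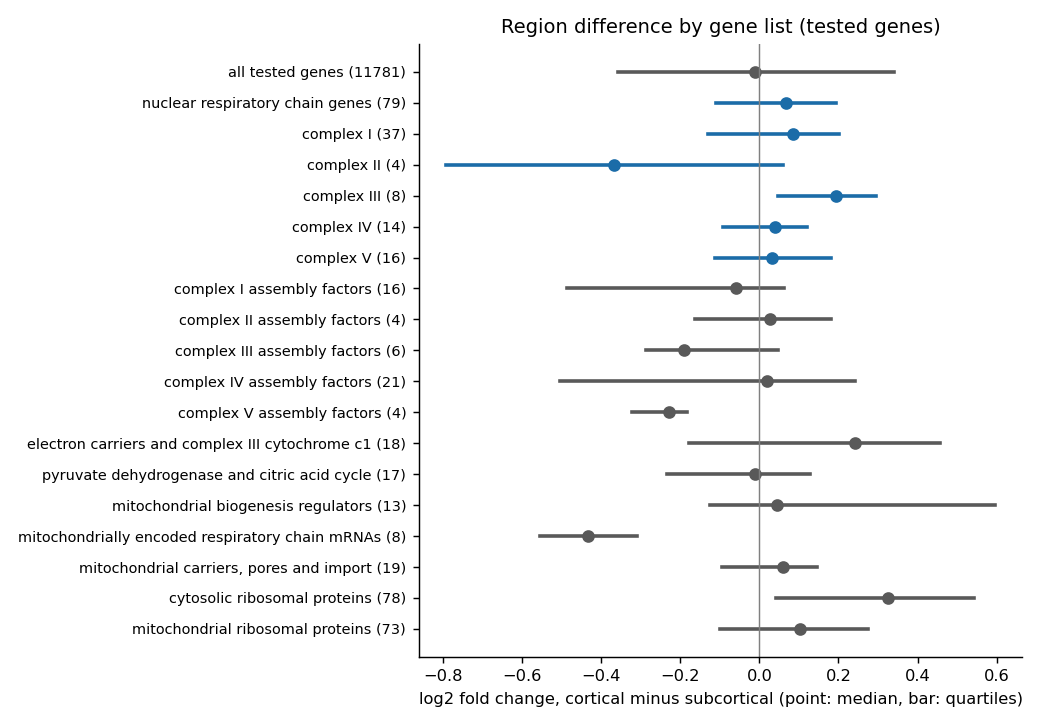
Median (point) and quartiles (bar) of the log2 fold change, cortical minus subcortical, of the tested genes of each list other than the cell type markers, with their number in brackets. Complexes I, IV and V have medians of 0.08, 0.04 and 0.03, the 4 complex II genes spread widely, and the mitochondrially encoded mRNAs have the lowest median of the lists drawn, -0.43.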

How the data were processed

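Astrocytes flow sorted from 4 mice gave 8 libraries. Per the labels' protocols, RNA was purified with the RNeasy Plus Micro kit and read with the forward QuantSeq 3′ kit of Lexogen. Deposited were counts, whole numbers for each gene. Tools in the submitters' processing notes are HTSeq 0.9.0, STAR 2.6.0, FastQC 0.11.5 and DESeq2 1.35.0, with the build GRCm39. Settings, strand and molecular identifiers are not stated, so overlapping and near-identical genes are uncertain. Library sizes leave out the 5 summary rows. Reads in no feature were 30.218 to 40.719% and ambiguous reads 0.384 to 0.548% of a library, and the row for non-unique alignments holds 0 throughout. A series table served for gene symbols, and its 8 columns of per-sample values were not used.

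Region was tested with edgeR 4.0.16 (R 4.3.3): filterByExpr (10 counts, 15 in total), TMM factors and quasi-likelihood tests with Benjamini-Hochberg adjustment over all tested genes at 0.05. The script was tested on simulated data. Alternatives were DESeq2 1.42.0, limma-voom (limma 3.58.1), other scalings and filters, the mouse as a block, a sex covariate and each library left out. Members and lists were chosen with earlier results of these data known. Named members are those called, the 2 most abundant per complex, the 3 largest changes per direction, the Sdh genes and the isoform sets, and others were added for their role or as an extreme after their values were seen; from other lists, called genes, up to 3 each.

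Cortical and subcortical samples with the same mouse number came from the same animal, per the labels. After subtraction of region means, samples of a mouse correlated at 0.018 to 0.0575 and those of different mice at -0.0815 to 0.0457. Within a region, libraries differed beyond sampling noise, with a chi-square over its degrees of freedom of 12.3 to 26.6.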

Additional observations from a re-analysis of the deposited data

Results flagged for a closer look

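In groups of 4 libraries, 66 member levels and sums were checked for a library whose gap to its nearest neighbour takes up most of the group's range (beyond Dixon's 95% limit), which chance gives in about 1 of 20 groups. Such a gap was found in 2 of them. Cox6b2, the testis form of a complex IV subunit, was at 12.9 CPM in the subcortical library of mouse 1 and at 3.844 to 5.294 CPM in the other 3 subcortical libraries. The summed mitochondrially encoded mRNAs were at 57270 CPM in the cortical library of mouse 1 and at 74620 to 76820 CPM in the other 3 cortical libraries.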

How the results depend on the processing

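The direction of the called members was kept under every alternative run. At an adjusted p under 0.01, 477 genes were called in place of 802, with 0 members higher and 1 lower. On raw library totals, the median member log2 fold change was 0.28 and the log2 ratio of summed levels 0.24, beside an all-gene median of 0.19, and 0 members were called lower. The number of members called lower was 2, with Sdhc added, under DESeq2, with no low-count filter, with a filter of 15 or more counts summed and with the replicate block. With the mouse as a replicate block, 885 genes were called, 1 member was higher and the median member log2 fold change was 0.07. The block changed no other call of a named gene except that of mt-Cytb, which it ended (adjusted p = 0.057, edgeR). Leaving out 1 library at a time gave 614 to 775 called genes, 0 to 1 members higher, 1 to 2 lower and a median of -0.01 to 0.13. The 0 arose without the cortical library of mouse 2 or 3 or the subcortical library of mouse 2, and the 2 without the subcortical library of mouse 4. Called members in the sex and interaction tests were 0 in each alternative run. Causes of these shifts were not tested. Tested members under 10 CPM had intervals too wide to bound a 2-fold difference, and those of Cox7a2l, Ndufa4, Sdhc and Cox7b also reached beyond it. The p-values measure the spread between 4 animals of unknown strain.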
